A study of Mus musculus with 2 samples.

Results

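Mir764, Mir1912, Mir1264, Mir1298 and Mir448 are 5 microRNA (miRNA) genes that lie inside the serotonin receptor gene Htr2c on the X chromosome. They are 5 of the 2202 miRNA genes annotated in GENCODE M21. The rows of the count tables were found by these 5 gene names. The 5 genes were selected on the ratio of their reads between the libraries, which had been seen for Mir1264, Mir1298 and Mir448. Mir764 and Mir1912 were added because they share the host gene. Ratios between the libraries are therefore given as descriptions without a test.

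Small RNA was sequenced from the hippocampus of female B6CASTF1/J mice aged 36 days, which are F1 hybrids of the strains C57BL/6J and CAST/EiJ. The labels name 2 libraries, biological replicates 1 and 2 of 1 group, with different tissue entries and 1 shared donor entry. Separate animals are not stated, so the spread between the libraries may be technical in part. No treatment, age or genotype was contrasted, and the tissue was not sorted into cell types.

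Levels are sense reads on a gene per 1000000 sense reads on all miRNA genes (CPM). The totals were 2928141 reads in replicate 1 and 3644157 in replicate 2, so that 1 read is 0.342 and 0.274 CPM. For a gene without reads the upper limit was set at 3 counts, equal to 1.02 CPM and 0.823 CPM. Intervals are exact at 95% and, like this limit, cover counting error only.

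An intronic miRNA is cut as a hairpin out of the primary transcript of its host gene and processed to a short duplex. One strand of the duplex is loaded onto an Argonaute protein and pairs with messenger RNAs through its seed, bases 2 to 8. Htr2c encodes a G protein-coupled serotonin receptor whose transcript is known for RNA editing and alternative splicing. In brain it is known to be very high in the epithelium of the choroid plexus and present in neurons of several regions, the hippocampus among them.

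The mature sequences of all 5 genes, 8 in number, were taken from RefSeq (GRCm38.p6), because the seed sets what each miRNA can pair with. They are written 5′ to 3′ with the seed in capitals.
miR-764-5p: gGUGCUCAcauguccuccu
miR-764-3p: aGGAGGCCauaguggcaacugu
miR-1912-3p: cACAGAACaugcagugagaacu
miR-1264-3p: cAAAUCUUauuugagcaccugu
miR-1298-5p: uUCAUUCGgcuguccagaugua
miR-1298-3p: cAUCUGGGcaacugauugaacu
miR-448-5p: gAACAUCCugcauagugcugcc
miR-448-3p: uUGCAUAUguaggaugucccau

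All 8 seeds differed from each other, so the genes shared a host but no seed. Among 1738 mature miRNAs of the RefSeq table, 1 from another gene carried one of these seeds, miR-7062-5p with the seed of miR-764-3p. Its gene Mir7062 had 2 and 6 reads in replicates 1 and 2. None of the 8 mature sequences occurred whole in an annotated transcript of another gene, and none shared a stretch of 18 bases with another annotated miRNA hairpin. Genomic copies outside annotated genes were not analysed here.

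Htr2c (ENSMUSG00000041380.13) spans chrX:146962513-147197277 on the plus strand (mm10), 235 kb with 7 annotated transcripts. All 5 hairpins lie on the same strand and overlap no exon of any of them. Of the 7 transcripts, 6 hold Mir764, Mir1912, Mir1264 and Mir1298 in an intron, and 4 hold Mir448 in an intron. In transcript Htr2c-201, which has 6 exons, 4 of the hairpins lie in intron 2 (90.8 kb) and Mir448 in intron 4 (93.5 kb). Mir764 (ENSMUSG00000076458.1) lies at chrX:147002259-147002366, 39.7 kb from the start of Htr2c. Mir1912 (ENSMUSG00000093039.1, chrX:147009441-147009527) and Mir1264 (ENSMUSG00000093122.1, chrX:147010601-147010686) are close neighbours with 1073 bases between them. Mir1298 (ENSMUSG00000080331.1, chrX:147064905-147065002) follows 54218 bases further on, 7.38 kb before the end of intron 2. Mir448 (ENSMUSG00000065450.1, chrX:147158210-147158321) lies 196 kb from the start of the host.

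The Mir1298 hairpin is shown because this gene held most reads of the group; capitals mark its 5p and 3p mature arms. Counts were made per hairpin, so it is not known which arm the reads came from.
Mir1298: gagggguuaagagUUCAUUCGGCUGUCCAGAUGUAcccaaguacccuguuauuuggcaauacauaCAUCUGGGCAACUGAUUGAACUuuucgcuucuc

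The hairpins were unlike in base composition. GC content was 36.0% for Mir1264, 37.9% for Mir1912, 44.9% for Mir1298, 46.3% for Mir764 and 52.7% for Mir448. The median over the 474 genes with a summed count of at least 10 was 52.3%, and 3.16% of those genes had a lower value than Mir1264. Predicted folding energies, computed with RNAfold, ran from -0.40 kcal/mol per base for Mir1264 to -0.47 for Mir1298 and Mir1912, against a median of -0.43 over the same genes.

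Mir1298 was the most abundant of the 5 genes in both libraries, and all 5 had a higher CPM in replicate 2. Mir1298 had 295 reads in replicate 1, or 101 CPM (89.6 to 113), and 6497 reads in replicate 2, or 1783 CPM (1740 to 1827). Its mean of 942 ± 1189 CPM (SD, n = 2) ranked it 100 of all 2202 genes, of which 723 had a read in either library. Its rank was 202 in replicate 1, where 1580 genes had 0 reads, and 72 in replicate 2, where 1524 had 0. The SD exceeded the mean, so this mean describes neither library. In bulk tissue, fewer cells of a type and less RNA per cell cannot be told apart.

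Mir448, whose miRNA is known for repressing Klf5 in fat cell precursors, had 32 reads in replicate 1, or 10.9 CPM (7.48 to 15.4). In replicate 2 it had 380 reads, or 104 CPM (94.1 to 115), and the mean was 57.6 ± 66.0 CPM (SD, n = 2). Mir1264 had 46 reads in replicate 1, or 15.7 CPM (11.5 to 21.0), and 311 reads in replicate 2, or 85.3 CPM (76.1 to 95.4), with a mean of 50.5 ± 49.2 CPM (SD, n = 2). These 2 genes were close in level, and their order turned: Mir1264 was the higher in replicate 1 and Mir448 in replicate 2. Their intervals overlapped in each library, which alone does not show equal levels.

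Mir764 had 30 reads in replicate 1, or 10.2 CPM (6.91 to 14.6), and 92 reads in replicate 2, or 25.2 CPM (20.4 to 31.0). In replicate 1 it did not differ from Mir448 or Mir1264 beyond counting error, whereas in replicate 2 it lay below both. Mir1912 was the lowest, with 0 reads in replicate 1 and 20 in replicate 2, or 5.49 CPM (3.35 to 8.48). It reached a summed count of at least 10 through replicate 2 alone. No antisense read was counted at any of the 5 genes in either library, so counts without strand were identical.

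**Figure D1:**
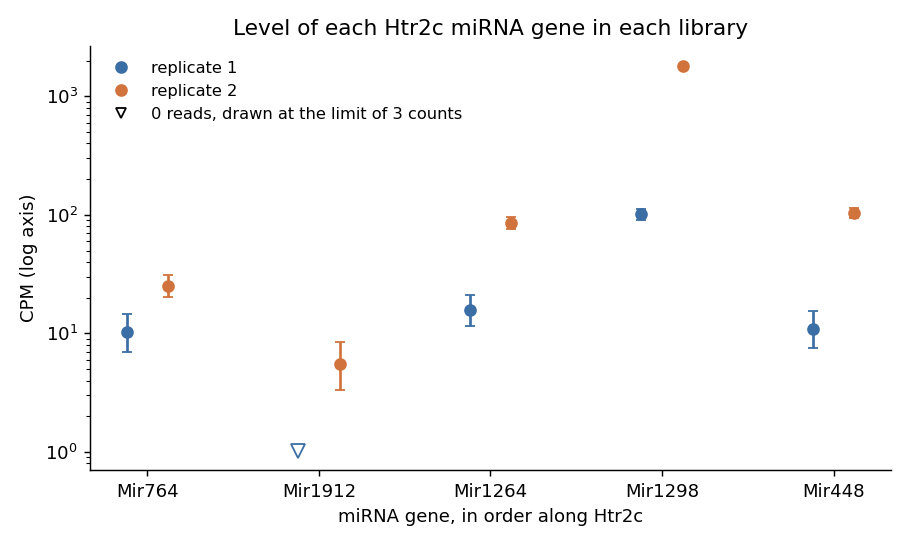
Level of each of the 5 genes in CPM (log axis), in their order along Htr2c, with 1 point per library and exact Poisson 95% intervals (counting error only). Every point of replicate 2 lies above that of replicate 1, from 25.2 against 10.2 CPM for Mir764 to 1783 against 101 CPM for Mir1298; the open triangle marks 0 reads, drawn at the limit of 3 counts.

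By mean CPM the order was Mir1298, Mir448, Mir1264, Mir764 and Mir1912. CPM was used without hairpin length because a read covers a whole mature miRNA and not a fragment of a longer transcript; copies made by PCR were not told apart. The genes next above and below them by mean CPM differed less between the libraries, with exceptions at low levels. Mir431, just above Mir1298 in mean, stood at 878 and 1010 CPM in replicates 1 and 2, and Mir140, just below, at 1027 and 837 CPM. Around Mir448, Mir344b stood at 40.0 and 77.7 CPM and Mir25 at 57.0 and 57.4 CPM. Around Mir1264, Mir551b stood at 47.5 and 54.6 CPM and Mir135b at 65.2 and 31.3 CPM. Of these 6 genes, 1 was past 2-fold, Mir135b, and it was higher in replicate 1. Around Mir764, Mir181b-1 stood at 21.5 and 14.0 CPM. Mir26a-1 stood at 7.51 and 27.2 CPM; it shares its 5p miRNA with Mir26a-2, so its own level is uncertain. Around Mir1912, Mir7016 had 11 and 7 reads and Mir3103 had 4 and 15.

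The 5 genes together had 403 reads in replicate 1 and 7300 in replicate 2, or 138 CPM (125 to 152) and 2003 CPM (1958 to 2050). This is 0.0138% of the reads on miRNA genes in the one and 0.200% in the other. The ratio of replicate 2 to replicate 1 was 14.6 (13.2 to 16.1). Without Mir1298 the other 4 genes had 108 and 803 reads and a ratio of 5.97 (4.88 to 7.37), so 1 gene set much of the summed ratio.

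The ratio was not uniform along the host. It was 2.46 (1.62 to 3.86) for Mir764, 5.43 (3.98 to 7.58) for Mir1264, 17.7 (15.7 to 20.0) for Mir1298 and 9.54 (6.64 to 14.2) for Mir448. Mir1912 had no reads in replicate 1 and was at least 5.36-fold higher in replicate 2 when 3 counts are taken as the limit there. The exact 95% interval of its ratio starts lower, at 3.97, and has no upper end. Among the 4 genes read in both libraries, the lowest and the highest value both came from hairpins of intron 2, Mir764 and Mir1298, whose starts are 62646 bases apart. Mir448, the only one of the 5 genes in intron 4, lay between them. The place of Mir1912 in this order is not determined.

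**Figure D2:**
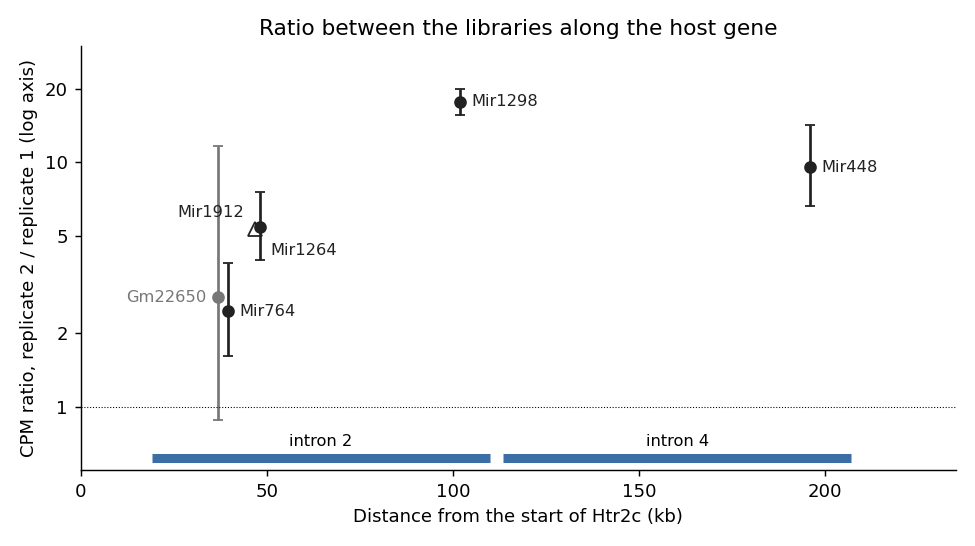
Ratio of CPM in replicate 2 to replicate 1 (log axis) against the distance from the start of Htr2c in kb, with exact binomial 95% intervals (counting error only); bars at the bottom mark introns 2 and 4 of Htr2c-201. Of the 4 genes read in both libraries Mir764 lies lowest at 2.46 and Mir1298 highest at 17.7; the open triangle is Mir1912 with its 0 reads in replicate 1 set to 3 counts, drawn without its interval, and the grey point is the predicted gene Gm22650.

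Of the 5 genes, 5 were at least 2-fold higher in replicate 2, against 13.3% (63 genes) of the 474 genes that reached a summed count of 10. At least 4-fold higher were 4 of the 5, all but Mir764, against 4.64% of all genes (22 genes); the lower limits of Mir1264 (3.98) and Mir1912 (3.97) lie just under 4. These counts are a description only, since the same ratio brought the genes together. The median ratio was 7.49 over the 4 genes read in both libraries, 5.43 over all 5 with Mir1912 at the limit of 3 counts, and 1.03 over the 474 genes. The value over all 5 depends on that limit, since a higher ratio of Mir1912 could raise it to as much as 9.54. Among 295 genes with a summed count of at least 100, Mir1298 had rank 2 by ratio, Mir448 rank 4, Mir1264 rank 6 and Mir764 rank 17.

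**Figure D3:**
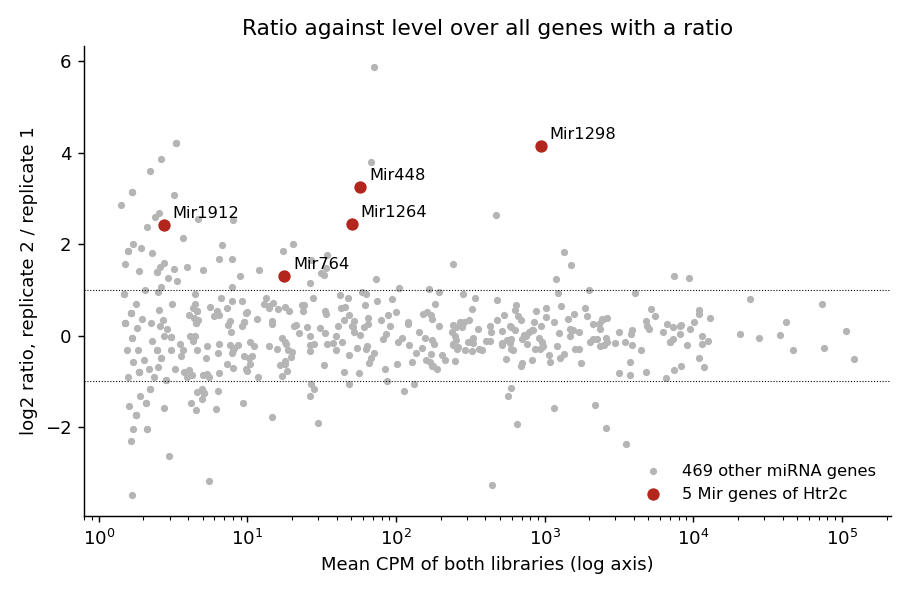
The log2 ratio of replicate 2 to replicate 1 against the mean CPM of both libraries (log axis) for 474 miRNA genes, with the 5 Mir genes of Htr2c in red and dotted lines at 2-fold. The 5 genes all lie above the upper line, Mir1912 with 3 counts in place of 0; at the level of Mir1298 most other genes lie between the lines, whereas ratios scatter more at low levels such as that of Mir1912.

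The make-up of the group also differed between the libraries. Of the 403 reads of replicate 1, 73.2% came from Mir1298 (68.6% to 77.5%, Clopper-Pearson), and of the 7300 reads of replicate 2, 89.0% did (88.3% to 89.7%). Mir764 went from 7.44% (5.08% to 10.5%) to 1.26% (1.02% to 1.54%), and Mir1264 from 11.4% (8.48% to 14.9%) to 4.26% (3.81% to 4.75%). For these 3 genes the intervals of the 2 libraries did not overlap. The share of Mir448 was 7.94% (5.49% to 11.0%) and 5.21% (4.71% to 5.74%). Its intervals overlapped, which alone does not show that the share was equal.

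With the make-up of replicate 2, the 403 reads of replicate 1 would hold 5.08 reads of Mir764, where 30 were counted. They would hold 17.2 reads of Mir1264, where 46 were counted, and 359 of Mir1298, where 295 were counted. For Mir448 the number would be 21.0, where 32 were counted. For Mir1912 the number would be 1.10 reads, so its 0 in replicate 1 was not detectably different at this depth. Mir1298 had 9.83 reads for each read of Mir764 in replicate 1 and 70.6 in replicate 2. The ratio of Mir1298 was thus 7.18 times that of Mir764 (exact conditional interval 4.51 to 11.1), 3.26 times that of Mir1264 (2.29 to 4.56) and 1.85 times that of Mir448 (1.23 to 2.72). The ratio of Mir448 was in turn 1.76 times that of Mir1264 (1.06 to 2.92) and 3.87 times that of Mir764 (2.15 to 6.93).

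**Figure D4:**
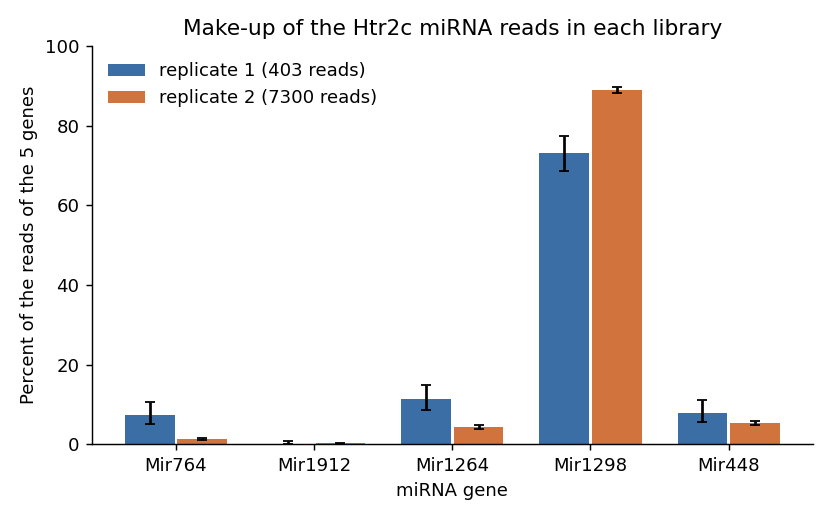
Percent of the reads of the 5 genes that each gene held in each library, with exact Clopper-Pearson 95% intervals (counting error only). Mir1298 rises from 73.2% to 89.0% between replicates 1 and 2, while Mir764 and Mir1264 take smaller shares in replicate 2.

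Another 2 annotated miRNA genes lie in introns of Htr2c on the same strand. Gm22650, which RefSeq pairs with miR-3552, lies 2749 bases before Mir764 in intron 2. Its counts were 4 and 14 reads in replicates 1 and 2, with a ratio of 2.81 (0.883 to 11.7), so a difference was not detectable at this depth. Gm24627, which RefSeq pairs with miR-1911, lies in intron 4 between Mir1298 and Mir448 and had 0 reads in both libraries. The host thus held hairpins from 0 reads to 6497 reads in replicate 2.

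Outside Htr2c, the nearest annotated miRNA genes on the X chromosome had no reads or did not share the shift. Upstream, Mir3472 (1.92 Mb away), Mir680-2 (2.66 Mb) and Gm47298 (3.14 Mb) had 0 reads in both libraries. Downstream, Mir3620 (3.35 Mb) and Mir3113 (4.66 Mb) had 0 reads as well. Mirlet7f-2, 4.72 Mb downstream, had 12152 and 13084 reads, a ratio of 0.865 (0.844 to 0.887). It shares its mature sequence with another let-7 gene, so its level is uncertain as a single gene.

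Of 135 other miRNA genes on the X chromosome, 30 had 10 reads or more in each library and 35 had a summed count of at least 10. Their median ratio was 1.05, close to the 1.03 of all genes. At least 2-fold higher in replicate 1 were 0 of the 35, against 43 of all 474 genes. At least 2-fold higher in replicate 2 were 7 of the 35, against 63 of all 474 genes. With a summed count of at least 100 this was 1 of 25, Mir351 at 323 and 815 reads, with a median of 0.931.

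Other hosts with at least 3 measured miRNA genes on their strand spread less. Over 12 such hosts the highest ratio was 1.13 to 3.87 times the lowest, with a median of 1.97, against 7.18 in Htr2c. The imprinted noncoding host Mirg came next, from 0.606 for Mir377 to 2.35 for Mir668 over 13 genes. Clcn5, another X-linked host, ran from 0.599 for Mir500 to 1.22 for Mir532 over 5 genes. The median ratio of Htr2c was 5.39 over 6 genes, with Gm22650 included and Mir1912 at the limit of 3 counts, and 1 of the 12 other hosts had a median of at least 2, Gm13648 with 3 genes of the epithelial mir-200 family. With a summed count of at least 100, which leaves out Mir1912, the spread in Htr2c was still 7.18 over 4 genes with a median of 7.49. The medians of the 10 other hosts reached at most 1.13. Genes of Htr2c were selected on this same ratio, so its place among the hosts is a description only.

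**Figure D5:**
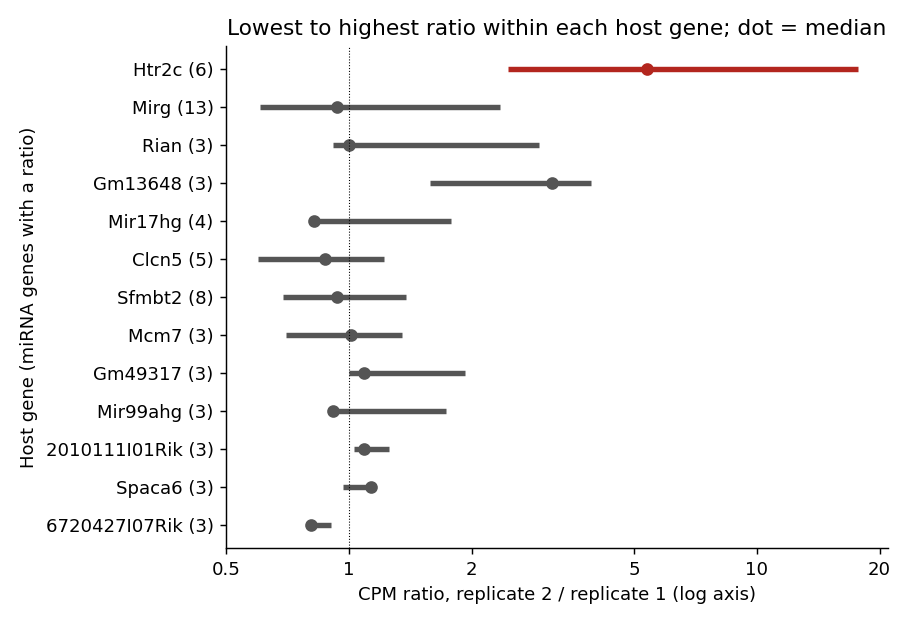
Lowest to highest CPM ratio of replicate 2 to replicate 1 (log axis) among the miRNA genes of each host gene with at least 3 genes of summed count 10 or more; the dot is the median and the number of genes is in brackets. Htr2c spans 2.46 to 17.7 and most other hosts lie around 1. Genes of Htr2c were selected on this ratio, so its place is a description only.

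The 5 genes whose ratio lay nearest to the summed ratio were Mir183, Mir301, Mir34b, Mir182 and Mir26a-1, by the absolute difference of log2 ratios over 2 libraries and a summed count of at least 100. Mir183, known from sensory cells, stood at 9.22 and 127 CPM in replicates 1 and 2. Its log2 ratio differed by 0.08 from that of the summed reads, which came mostly from Mir1298. Mir301 followed at 130 and 807 CPM, with a difference of 1.23. The others differed by 1.87 to 2.01, so likeness fell off quickly after the first. None of the 5 lies on the X chromosome, but the filter left out X-linked genes with few reads. Mir106a and Mir223, with 1 and 23 reads each in replicates 1 and 2, had log2 ratios of 4.21, against 3.86 for the summed reads.

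Marker miRNAs of other cell types also differed between the libraries. Of the choroid plexus and ciliated cell list, whose tissue is known for high Htr2c, 4 of 7 genes had 10 reads or more in each library. Its sum went from 1147 CPM in replicate 1 to 2661 CPM in replicate 2, a ratio of 2.32, and without Mir204 from 555 to 560 CPM. Mir204, prominent in choroid plexus epithelium, stood at 593 and 2101 CPM, a ratio of 3.55, and Mir34b at 8.20 and 32.7 CPM, a ratio of 3.98. Mir34c was level at a ratio of 1.06, Mir449a was lower at 0.649, Mir211 had 7 reads in all, Mir449c 2, and Mir449b was at 0. The interval of Mir34b (2.55 to 6.46) overlapped those of Mir764, Mir1912 and Mir1264 and lay below those of Mir448 and Mir1298. That of Mir204 (3.37 to 3.74) lay within that of Mir764 (1.62 to 3.86). It lay below those of Mir1912, Mir1264, Mir448 and Mir1298. The part of this list in the shift of the Htr2c genes was not tested.

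The epithelial and sensory list went from 58.7 CPM to 366 CPM, a ratio of 6.24, with 4 of 7 measured genes at least 2-fold higher in replicate 2, namely Mir182, Mir183, Mir200a and Mir200b, and 1 at least 2-fold higher in replicate 1, Mir141. None of its 8 genes was at 0 in both libraries. In replicate 2 Mir182 and Mir183 carried most of the summed CPM, at 140 and 127 CPM. In replicate 1 they carried the smaller part, at 2.39 and 9.22 CPM. The other 6 genes went from 47.1 to 99.6 CPM, a ratio of 2.11. The sum of the neuronal list was close to level, at 22169 and 24457 CPM, with 0 of 6 measured genes at least 2-fold apart. Most of it came from Mir137, at 9112 and 12631 CPM, and activity-regulated Mir132, at 12153 and 10636 CPM. Their ratios were 1.39 and 0.875. The Mir124a genes of this list were hardly read, with at most 8 reads per library each. Reads matching several places, 38.9% and 45.8% of all reads in replicates 1 and 2, were not used. The level sum therefore says little about the Mir124a genes. The glial list was lower in replicate 2, at 13773 and 6718 CPM, with 3 of 7 genes at least 2-fold higher in replicate 1. The red cell list was lower too, at 1176 and 340 CPM, with 1 of 3 genes past 2-fold. Among all 474 genes, 63 were at least 2-fold higher in replicate 2 and 43 in replicate 1. The part of these lists in the shift was not tested either.

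The 250 bases before the annotated start of Htr2c (chrX:146962263-146962512, plus strand, RefSeq, GRCm38.p6) are shown because all 5 hairpins lie within this gene; whether their primary transcripts began here was not measured. Capitals mark a match to the CCAAT box.
Htr2c promoter: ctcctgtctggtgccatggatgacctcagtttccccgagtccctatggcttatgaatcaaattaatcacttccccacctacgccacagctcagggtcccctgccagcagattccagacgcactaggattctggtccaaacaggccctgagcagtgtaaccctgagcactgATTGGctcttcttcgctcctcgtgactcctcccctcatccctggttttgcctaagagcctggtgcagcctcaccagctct

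The match is CCAAT on the minus strand, which reads ATTGG on the strand shown. The first base of ATTGG lies 80 bases before the start. Of 32851 promoter windows of this length, 33.8% hold CCAAT on either strand. The letters TATAAA, which 12.4% of windows hold, were not in this window. The GC box (GGGCGG, 32.7% of windows), the E-box (CACGTG, 6.02%) and the cAMP response element (TGACGTCA, 1.55%) were not in it either. A match describes letters and not a site in use, and no transcript of Htr2c itself was measured in these libraries.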

How the data were processed

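The deposited values are raw counts of reads per miRNA gene, in 3 unnamed columns per library, which the authors made on assembly mm10 with annotation M21, per the notes deposited with the files. The names of the aligner and counting tool were not given in the sources used here. From their totals, columns were read as without strand, sense and antisense, and sense counts were used. A further 4 rows per library that name no gene, 69.5% and 65.3% of the reads in replicates 1 and 2, were left out. All 2202 identifiers matched GENCODE M21.

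CPM were computed over all miRNA genes and no pseudocount was added. Ratios needed a summed count of at least 10, and 0 was replaced by 3 counts. Intervals were exact at 95% (Poisson, conditional binomial, Clopper-Pearson). With 1 group no test was made. The libraries were no duplicates (chi-square 390 times its degrees of freedom over 474 genes). Ratio and interval code was tested on simulated counts.

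The members and lists were chosen with earlier results of these data known. Named were the members, the 3 nearest miRNA genes on each side of Htr2c, the 5 nearest by ratio, neighbours by level, marker lists and genes sharing a seed. Mir351, Mir106a, Mir223, Gm22650, Gm24627 and the genes of other hosts were named after their values were seen. A host was a gene on the same strand whose body holds the hairpin; of hosts with the same miRNA genes the shortest was kept. Of 4 red cell names, 3 were annotated. Marker sums without Mir204 or without Mir182 and Mir183 were added after the values were seen. Alternatives were TMM (edgeR 4.0.16), DESeq2 1.42.0 size factors, other totals, counts without strand, other filters and folds, pseudocounts, and leaving out each replicate. Work was done in R 4.3.3 and Python 3.11.15 with scipy 1.17.1, pandas 2.3.3, numpy 2.4.6, matplotlib 3.10.9 and RNAfold 2.7.2.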

Additional observations from a re-analysis of the deposited data

How the results depend on the processing

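No ratio of the 5 genes changed direction under any of the alternatives that were run, and the 5 genes stayed at least 2-fold higher in replicate 2 under the other scalings and without strand. The summed ratio ran from 13.9 to 16.6 over scalings and counts without strand; 16.6 came from dividing by every read in the table, and it was 5.97 without Mir1298. At least 4-fold higher were 22 of 474 genes (4.64%) instead of 63 (13.3%), and with a summed count of at least 100 it was 24 of 295 genes at 2-fold (8.14%). Adding a pseudocount of 1 or 0.1 CPM moved the ratio of Mir1912, with 0 reads in replicate 1, from 5.36 to 6.49 or 55.9, so its size is not determined; the ratios of the other 4 genes stayed within their intervals. Without replicate 1 or 2 the summed level was 2003 and 138 CPM. In the order by level, 3 of 5 places were kept per hairpin base and 3 to 5 when a replicate was left out, because Mir448 and Mir1264 changed places. The share of Mir1298 was 73.2% to 89.0% in single libraries. Mir1912 and Gm22650, with under 10 reads in replicate 1, are limited by depth. No paired analysis was possible because there was 1 group.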
